A study of Arabidopsis thaliana with 12 samples.

Results

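The 38 genes described here encode the glutathione transferases of the tau, phi, zeta and lambda classes of *A. thaliana* outside the tandem cluster that holds *GSTU1* to *GSTU7*. They were chosen by locus identifier and not by their values, and were 38 of the 38618 loci of the count table. The tau class had 21 members (*GSTU8* to *GSTU28*), the phi class 13 (*GSTF2* to *GSTF14*), the zeta class 1 (*GSTZ1*) and the lambda class 3 (*GSTL1* to *GSTL3*). RefSeq carries *GSTU17* under the name *ERD9* and *GSTF13* under the name *ATGSTF13*.

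Expression was measured by RNAseq in wild-type Col-0 plants that had been moved to PNM medium at an age of 7 days and given 2 days to adapt. In the PO group, 10 µM progesterone in 0.12% DMSO was applied for 1 h, and in the TO group 10 µM testosterone for the same time. The reference was 0.12% DMSO alone. Each group had 4 libraries from leaves, 12 in all, and the study describes them as biological replicates. Both steroids share the ring system and differ at the D ring, where progesterone carries an acetyl side chain and testosterone a hydroxyl group. The direction of each change follows the treatment labels of the libraries. The publication and the labels do not give the comparisons with DMSO the same sign, and the design holds no targeted gene that would check the labels. The direction of every difference from DMSO given here is therefore uncertain, and higher, lower, rose and fell hold only as far as the labels are right.

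Glutathione transferases of the tau and phi classes are plant detoxification enzymes that join the tripeptide glutathione to electrophilic compounds such as herbicides, explosives and products of lipid oxidation. A serine in the active site activates the thiol group of glutathione. The conjugates are then moved into the vacuole by ABC transporters of the C family. Lambda enzymes carry a cysteine in place of the serine and remove glutathione from compounds instead of adding it, and the zeta enzyme is a maleylacetoacetate isomerase of tyrosine breakdown. Transcripts of many tau genes are known to rise within hours of contact with foreign chemicals.

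Total counts per library ranged from 45185769 to 63445014 in PO, from 41036335 to 51856000 in TO and from 50443138 to 60728111 in DMSO. At this depth 3 counts corresponded to 0.047 to 0.0723 CPM, the counts of a gene relative to the library total, scaled with TMM factors. The 4 leaf markers *RBCS1A*, *LHCB1.3*, *CA1* and *RCA* together reached 28800 to 32772 CPM in PO, 28473 to 30939 CPM in TO and 29826 to 36157 CPM in DMSO. The 5 root markers summed to 0.561 to 3.21 CPM in PO, 1.36 to 4.87 CPM in TO and 0.702 to 1.99 CPM in DMSO, and the iron transporter gene *IRT1* among them had 0 counts in every library but TO library 1. The 4 flower markers summed to 17.2 to 26.3 CPM in PO, 14.1 to 25.4 CPM in TO and 12.5 to 30.7 CPM in DMSO. In bulk libraries such as these, fewer cells of a type and less RNA per cell cannot be told apart.

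Of the 38 members, 34 passed the filter on low counts and were among the 23203 loci tested in edgeR. *GSTU14*, *GSTU15*, *GSTU21* and *GSTF13* did not pass. Their highest counts in any library were 16 for *GSTU14*, 5 for *GSTU15*, 10 for *GSTU21* and 20 for *GSTF13*. For these 4 genes no difference was detectable at this depth, and no fold is given.

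Levels per length (RPKM, here CPM per kilobase of exon) spanned several orders of magnitude in the DMSO libraries, and 6 of the 8 highest members belonged to the phi class. *GSTF8*, a marker gene of early stress responses, was the highest with 616 ± 118 RPKM in PO, 623 ± 89.6 RPKM in TO and 635 ± 169 RPKM in DMSO (SD, n = 4 each). It contributed 34.6% of the summed CPM of all 38 members in the DMSO libraries. Next in DMSO came *GSTF6* (505 ± 203 RPKM) and *GSTF10* (471 ± 104 RPKM), both also known as genes induced by dehydration, and the ranges of these 3 overlapped. *GSTF7* (308 ± 86.1 RPKM), *GSTF9* (283 ± 55.3 RPKM) and *GSTF2* (229 ± 37.4 RPKM) followed and also overlapped with each other. The exons of *GSTF2* overlap with AT4G02510 on the other strand over 60.5% of their length. The level of *GSTF2* may therefore include reads of that gene, and its rank is uncertain to that extent.

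Among the tau genes, *GSTU19* stood far above the rest with 247 ± 11.3 RPKM in PO, 252 ± 20.4 RPKM in TO and 206 ± 7.46 RPKM in DMSO. The next tau gene in DMSO was *GSTU13*, which acts in the breakdown of indole glucosinolates, at 32.4 ± 5.95 RPKM. *GSTU18* (19.9 ± 1.99 RPKM), *GSTU27* (19.3 ± 5.41 RPKM) and *GSTU20* (17.7 ± 6.19 RPKM), whose protein binds the jasmonate-conjugating enzyme JAR1, overlapped with each other in DMSO. The other 16 tau genes were below 9 RPKM there, from *GSTU16* at 8.92 ± 0.452 RPKM down to *GSTU21* at 0.00440 ± 0.00879 RPKM. In the lambda class *GSTL3* was highest in DMSO (161 ± 6.11 RPKM), followed by *GSTL2* (38.8 ± 3.33 RPKM) and *GSTL1* (1.72 ± 1.02 RPKM), and *GSTZ1* stood at 31.0 ± 1.64 RPKM.

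**Figure D1:**
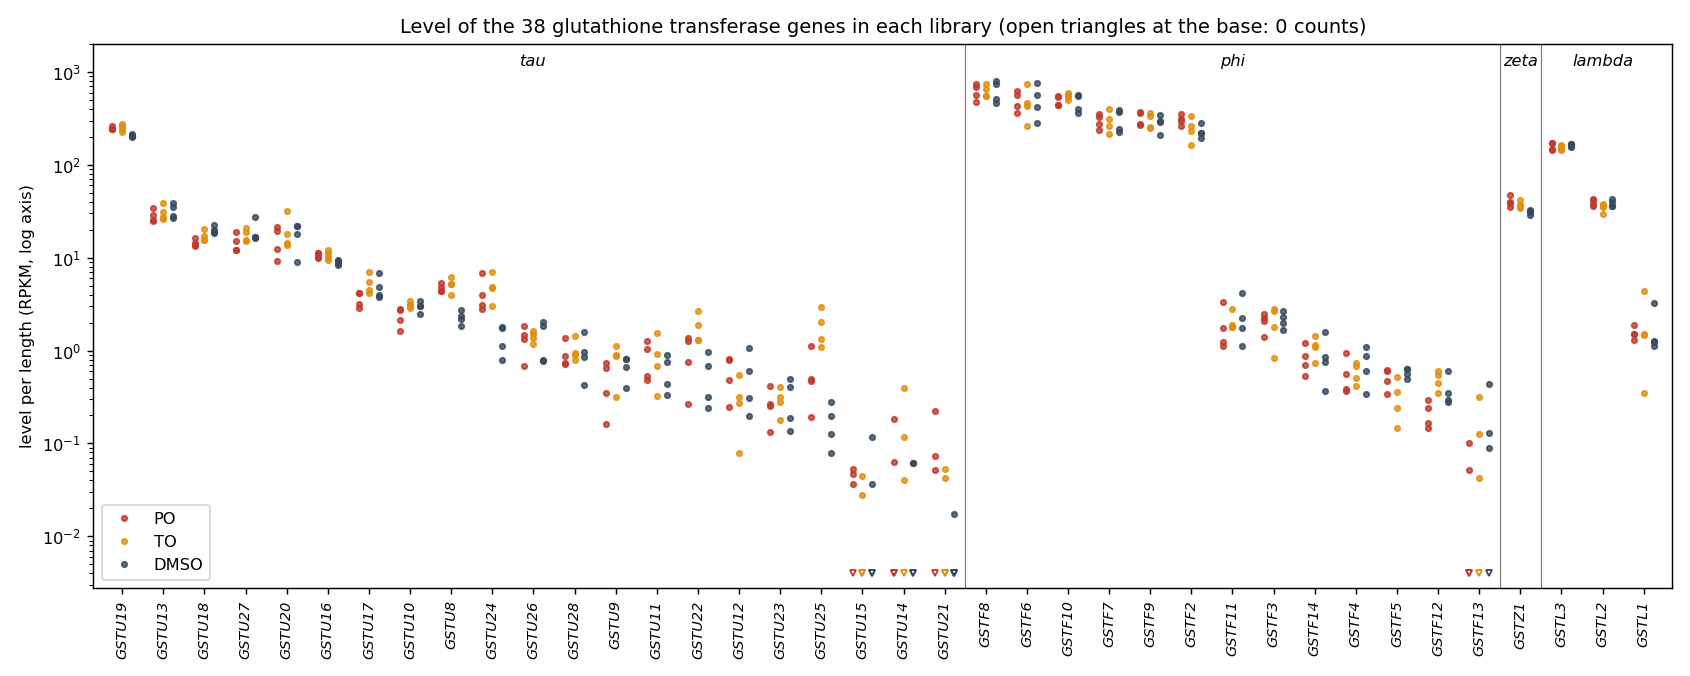
Level per length (RPKM, log axis) of the 38 members in each of the 12 libraries, by class and in order of the DMSO mean. Points are libraries of PO, TO and DMSO from left to right, and open triangles at the base are libraries with 0 counts. The 6 most abundant phi genes, *GSTU19* and *GSTL3* lie above 100 RPKM in every library, and *GSTU14*, *GSTU15*, *GSTU21* and *GSTF13* have libraries at 0 in each group.

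PO against DMSO asked which of these genes responded to progesterone, and TO against DMSO asked the same of testosterone. Both comparisons used the same 4 DMSO libraries, so their values are given side by side and not as independent support of each other. At an adjusted p under 0.05 in edgeR's quasi-likelihood test, 1 of the 34 tested members was called in PO (2.94%), where 0.168% of all tested loci were called. In TO 3 members were called (8.82%), where 0.284% of all loci were called. By the labels, all of these calls were higher than in DMSO, and they belonged to the tau class: *GSTU8* in PO, and *GSTU8*, *GSTU24* and *GSTU25* in TO. Of these, *GSTU25* passed the filter on low counts through its steroid-treated libraries, where it was high. The share called in TO includes it and is no independent support. In edgeR 0 of the 12 tested phi genes, 3 lambda genes and the zeta gene were called in either comparison. At an unadjusted p under 0.05, 1 of the 12 phi genes was higher in PO (*GSTF2*) and 1 lower (*GSTF12*). In TO 0 phi genes were higher and 1 was lower (*GSTF5*), and *GSTZ1* was higher in PO and TO. Of all loci, 5.96% were higher and 6.16% lower in PO, and 4.64% higher and 4.87% lower in TO. DESeq2, which called 318 of 31833 loci in PO and 298 in TO, called *GSTZ1* in PO and 0 of the phi or lambda genes.

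Taken over all members, the shift was small in both comparisons. The median of the log2 fold change (logFC) over the 34 members was -0.05 in PO and 0.08 in TO, against -0.01 in PO and 0.0 in TO over all tested loci. In PO 13 members were above 0 and 21 below, and in TO 20 were above and 14 below. The 18 tested tau genes had medians of -0.05 in PO and 0.13 in TO, and the 12 tested phi genes -0.06 in PO and -0.04 in TO.

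At an unadjusted p under 0.05, 7 members were higher in PO (20.6%, against 5.96% of all loci) and 3 were lower (8.82%, against 6.16%). In TO 7 members were higher (20.6%, against 4.64% of all loci) and 1 was lower (2.94%, against 4.87%). Every PO library was above every DMSO library for 5 members (14.7%, against 2.85% of all loci) and below for 1 (2.94%, against 2.72%). Every TO library was above every DMSO library for 7 members (20.6%, against 2.9%) and below for 0 (against 2.48%). *GSTU8*, *GSTU16*, *GSTU19*, *GSTU24* and *GSTZ1* were higher with no overlap in PO as well as in TO. *GSTU25*, which passed the filter through its steroid-treated libraries, is counted in each of the shares of 20.6%.

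**Figure D2:**
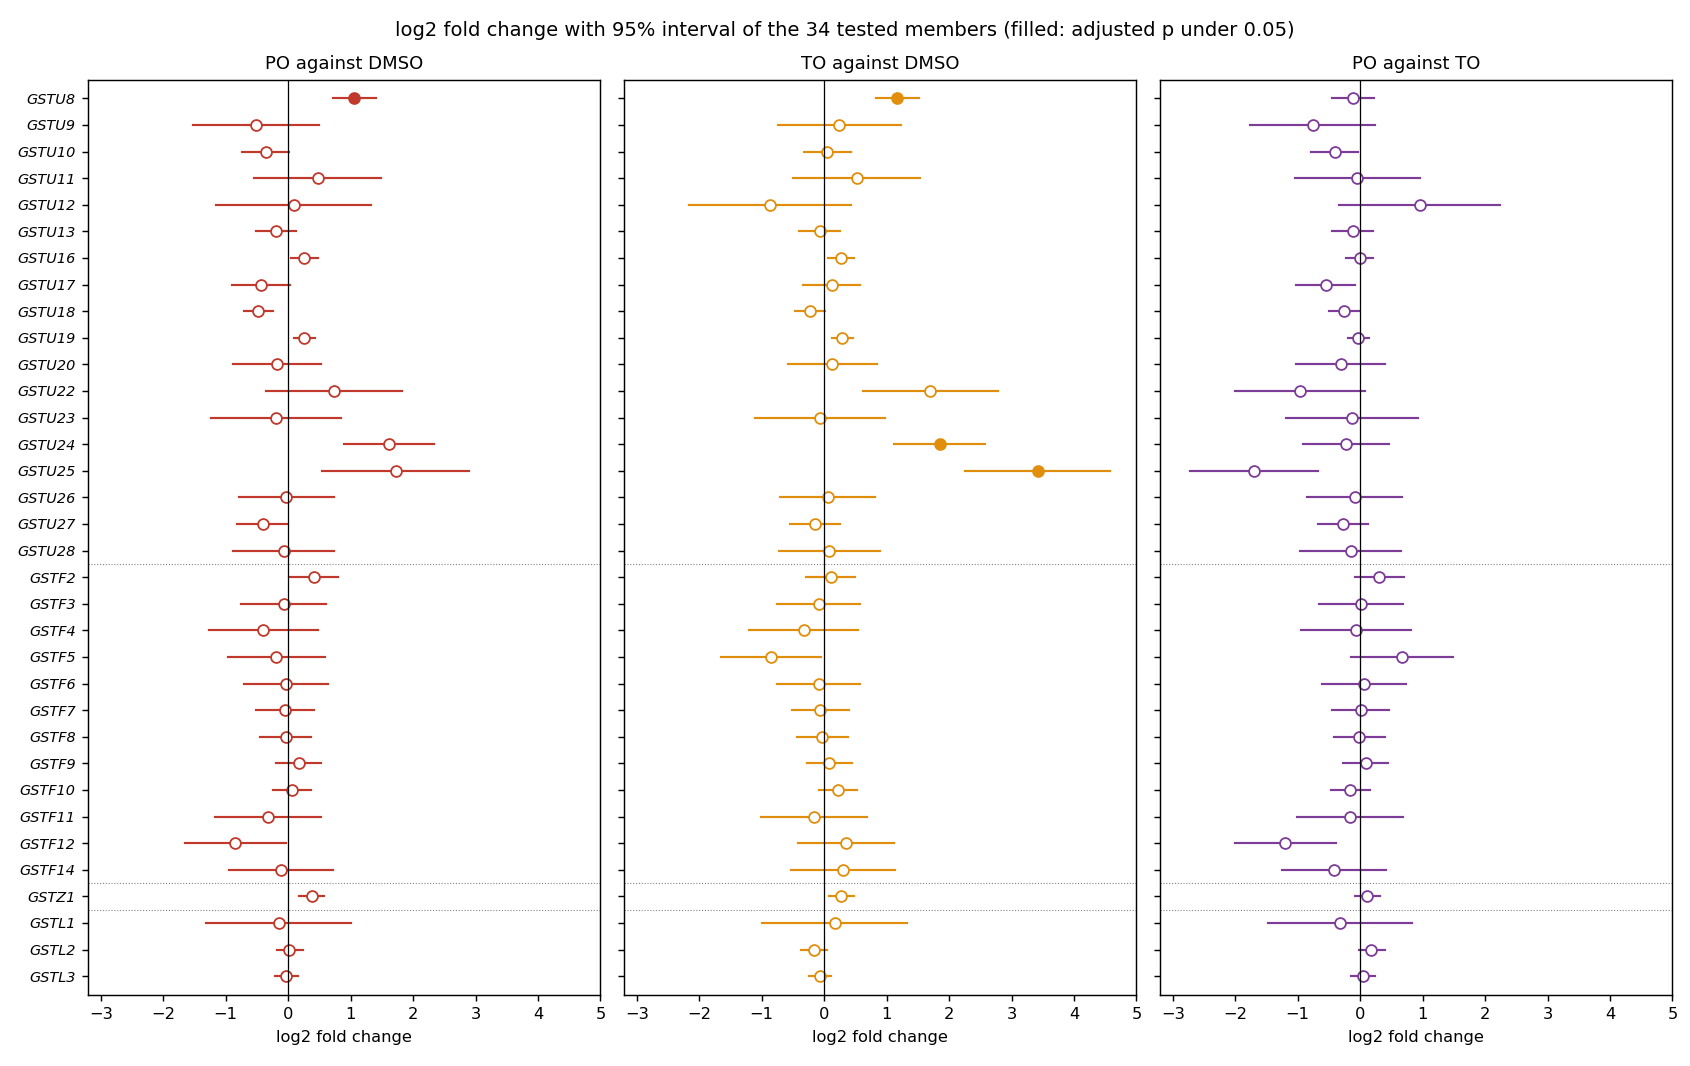
The log2 fold change of the 34 tested members with its 95% interval in 3 comparisons, PO against DMSO, TO against DMSO and PO against TO, with filled points for an adjusted p under 0.05. *GSTU8* is filled in both comparisons with DMSO, *GSTU24* and *GSTU25* in TO against DMSO, and no point is filled in PO against TO.

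*GSTU8* (AT3G09270) is a tau gene of 2 exons on the minus strand of chromosome 3 (chr3:2848183-2849686, TAIR10.1), away from the tandem arrays of its class. It had 5.998, 7.29, 6.005 and 6.49 CPM in PO libraries 1 to 4, 5.34, 7.09, 8.46 and 7.01 CPM in TO libraries 1 to 4, and 2.47, 3.70, 3.23 and 3.01 CPM in DMSO libraries 1 to 4. The lowest steroid-treated library had 1.44 times the value of the highest DMSO library. By the labels, *GSTU8* rose 2.08-fold in PO (logFC 1.06 ± 0.16, standard error; adjusted p = 0.012, edgeR) and 2.25-fold in TO (logFC 1.17 ± 0.16, adjusted p = 0.0057, edgeR). The difference between PO and TO was -0.11 with a 95% interval from -0.45 to 0.22, so differences within that interval were not detectable. The PO call was lost without DMSO library 4 (logFC 1.05, adjusted p = 0.052 from edgeR). The predicted protein of 224 residues was at most 47.4% identical to any other member (*GSTU23*).

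*GSTU24* (AT1G17170, chr1:5869543-5870883, plus strand, 2 exons) encodes a tau enzyme known to conjugate the explosive TNT. It had 3.39, 3.75, 4.73 and 8.21 CPM in PO, 5.72, 5.83, 8.34 and 3.61 CPM in TO and 0.941, 2.11, 1.35 and 2.15 CPM in DMSO. Each of the 8 steroid-treated libraries was above all DMSO libraries. By the labels, it rose 3.59-fold in TO (logFC 1.85, standard error 0.34, adjusted p = 0.038 from edgeR). In PO the logFC was 1.62 (standard error 0.34, 95% interval 0.89 to 2.34) with an unadjusted p of 0.00031 and an adjusted p of 0.10, which did not pass. DESeq2 gave adjusted p-values of 0.00033 in PO and 1.1e-05 in TO. The TO call of *GSTU24* was lost in 8 of 12 fits with 1 library fewer, namely those without DMSO 1 (0.11), 2 (0.056), 3 (0.13) or 4 (0.068), PO 3 (0.06), or TO 1 (0.069), 2 (0.10) or 3 (0.16), with adjusted p from edgeR in parentheses. Its logFC in those 12 fits stayed between 1.63 and 2.02.

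*GSTU25* (AT1G17180, chr1:5872024-5873124, plus strand, 2 exons) lies 1140 bases downstream of *GSTU24* and encodes another enzyme known to act on TNT. Its protein is 79.4% identical to that of *GSTU24*. It had 0.481, 0.502, 0.198 and 1.15 CPM in PO, 2.05, 1.34, 2.99 and 1.10 CPM in TO and 0.128, 0.201, 0.286 and 0.0796 CPM in DMSO. The underlying counts were 24, 32, 12 and 50 in PO, 106, 68, 124 and 57 in TO and 8, 10, 14 and 4 in DMSO, and the gene passed the filter on low counts through its steroid-treated libraries, since 2 DMSO libraries had at least 10 counts. All TO libraries were above all DMSO libraries, whereas PO library 3 was below DMSO libraries 2 and 3. By the labels, *GSTU25* rose 10.7-fold in TO, the largest change of any member (logFC 3.42, standard error 0.54, 95% interval 2.26 to 4.58, adjusted p = 0.014 from edgeR). In PO its logFC was 1.72 (standard error 0.55, 95% interval 0.54 to 2.90, adjusted p = 0.26 from edgeR). The TO call was lost without DMSO library 1 (logFC 3.29, adjusted p = 0.07 from edgeR), DMSO library 4 (3.19, 0.055) or TO library 3 (3.10, 0.062), and the replicate block took away the TO calls of *GSTU25* (adjusted p = 0.054 from edgeR) and *GSTU24* (0.058).

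TO library 3 held the highest value of *GSTU8*, *GSTU24*, *GSTU25* and *GSTU22* in TO, and it also had the highest sum of root markers, 4.87 CPM against 1.36 to 2.07 CPM in the other TO libraries. The part of the root markers in these results was not tested. Without that library the logFC in TO was 1.06 for *GSTU8*, 1.63 for *GSTU24*, 3.10 for *GSTU25* and 1.45 for *GSTU22*, and *GSTU8* alone was called (adjusted p = 0.024 from edgeR).

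**Figure D3:**
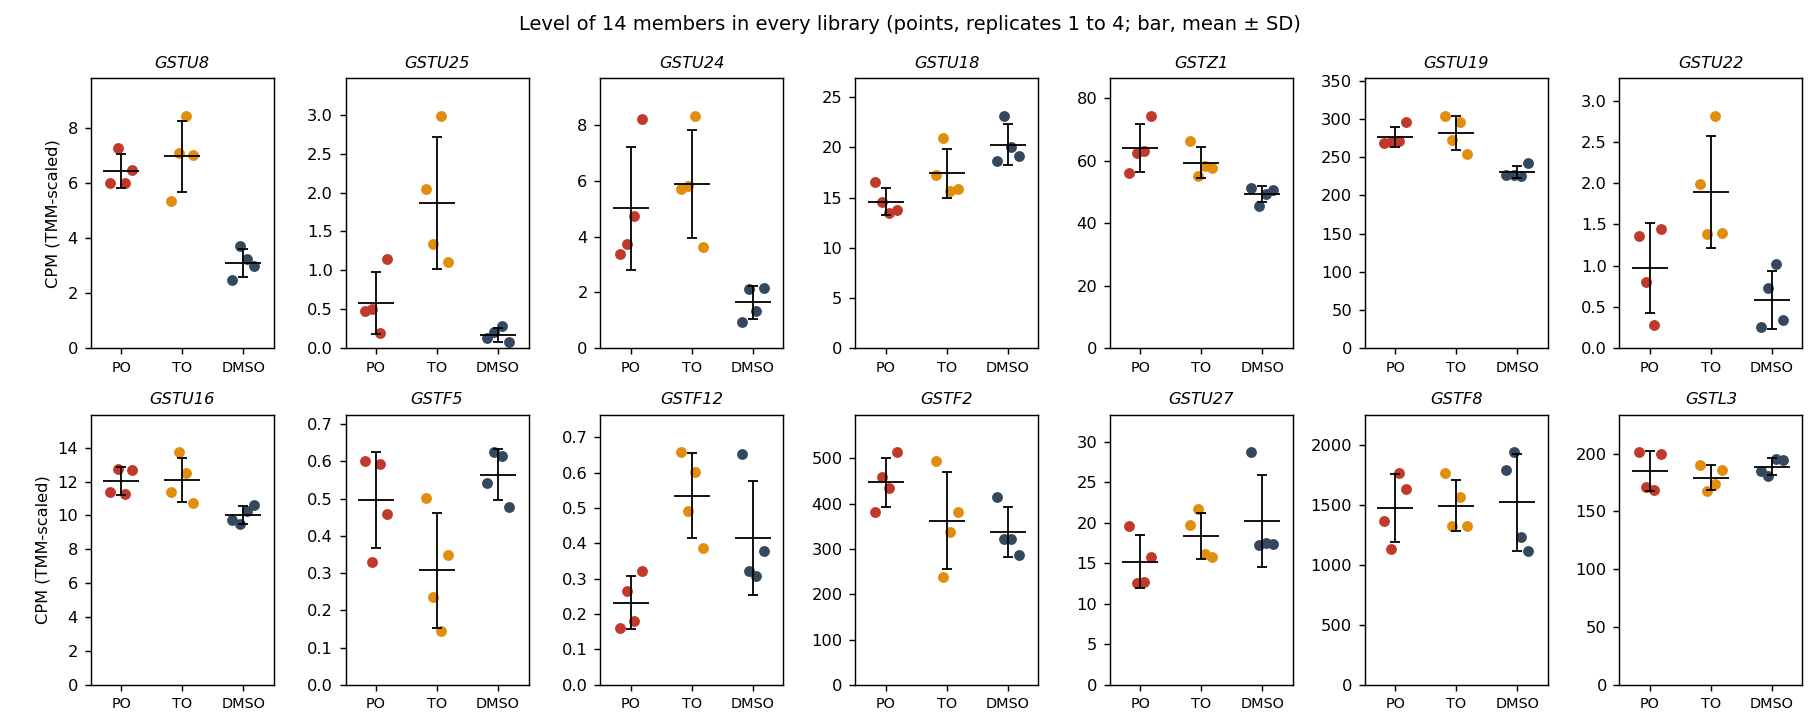
CPM of 14 members in each library, with PO, TO and DMSO from left to right, points for replicates 1 to 4 and bars for the mean ± SD (n = 4 each). *GSTU8* and *GSTU24* lie above DMSO in all steroid-treated libraries, *GSTU25* does so in all TO libraries, and the abundant *GSTF8* overlaps between the groups.

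The windows around the annotated starts of the 3 called genes are printed because they show whether and where each holds a TGACG motif, the core recognised by TGA transcription factors. They were read from the RefSeq genome and run from 250 bases before to 50 bases after the RefSeq start (TAIR10.1), 5′ to 3′ on the strand of the gene, with TGACG in capitals. *GSTU22*, with an adjusted p of 0.24 in TO, was added after its values and its window had been seen, because it shares a stretch with *GSTU24*. The coordinates are chr3:2849637-2849936 (minus) for *GSTU8*, chr1:5869293-5869592 (plus) for *GSTU24*, chr1:5871774-5872073 (plus) for *GSTU25* and chr1:29473954-29474253 (minus) for *GSTU22*.
GSTU8: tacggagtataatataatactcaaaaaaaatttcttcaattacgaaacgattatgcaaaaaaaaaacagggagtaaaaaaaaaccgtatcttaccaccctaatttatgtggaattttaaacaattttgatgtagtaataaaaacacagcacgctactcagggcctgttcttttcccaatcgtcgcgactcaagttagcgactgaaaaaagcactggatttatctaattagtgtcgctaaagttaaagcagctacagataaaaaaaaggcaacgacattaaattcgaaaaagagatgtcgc
GSTU24: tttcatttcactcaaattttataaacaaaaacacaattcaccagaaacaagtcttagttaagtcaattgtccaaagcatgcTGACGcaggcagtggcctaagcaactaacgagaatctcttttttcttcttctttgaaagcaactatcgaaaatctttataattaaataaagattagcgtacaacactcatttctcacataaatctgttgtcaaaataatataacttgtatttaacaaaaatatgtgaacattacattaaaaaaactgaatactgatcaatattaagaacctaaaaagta
GSTU25: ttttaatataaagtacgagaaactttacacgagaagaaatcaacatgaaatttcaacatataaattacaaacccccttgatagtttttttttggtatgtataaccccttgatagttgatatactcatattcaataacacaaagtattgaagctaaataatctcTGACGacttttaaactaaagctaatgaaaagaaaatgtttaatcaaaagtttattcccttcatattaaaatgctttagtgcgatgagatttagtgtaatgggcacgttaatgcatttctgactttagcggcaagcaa
GSTU22: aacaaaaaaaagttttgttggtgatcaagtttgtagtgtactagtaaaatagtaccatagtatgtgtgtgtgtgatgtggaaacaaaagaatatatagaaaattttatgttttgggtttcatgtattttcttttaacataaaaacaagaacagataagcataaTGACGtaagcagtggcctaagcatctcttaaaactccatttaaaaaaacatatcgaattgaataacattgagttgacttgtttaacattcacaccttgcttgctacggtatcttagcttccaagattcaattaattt

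*GSTU24*, *GSTU25* and *GSTU22* each hold TGACG once, on the strand of the gene, and it begins 169 bases before the start in *GSTU24* and 87 bases before it in *GSTU25* as well as in *GSTU22*. *GSTU8* has none in this window. Searched on both strands, TGACG was found in 13 of the 38 member windows (34.2%), against 23.1% of the windows of 27443 protein-coding genes. Beside these 3, it was in *GSTU9*, *GSTU11*, *GSTU19*, *GSTU20*, *GSTU27*, *GSTF3*, *GSTF8*, *GSTF10*, *GSTF13* and *GSTL1*. The motif TTGAC, known from WRKY factors, was in 60.5% of the member windows and 50.5% of all windows, and CACGTG, known from bHLH and bZIP factors, was in 10.5% and 7.7%. A pair of TGACG copies with 7 bases between them was in 0 of the 38 member windows and 21 of all windows.

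The longest identical stretch between *GSTU22* and *GSTU24*, GCAGTGGCCTAAGCA, is 15 bases long and begins 3 bases after TGACG in both. A longer stretch of 17 bases, rich in A, was shared by *GSTU8* and *GSTU19* at different places in the windows, one of 15 bases, CAACAACGTCGGTCA, by the near-identical neighbours *GSTF6* and *GSTF7*, and one of 14 bases by *GSTU21* and *GSTF10*. Searched on both strands, each of these 4 stretches was held by the 2 named windows alone among the 27443, so that the stretch of *GSTU22* and *GSTU24* is not particular in this. The other stretches of 14 or more bases that members shared consisted mostly of A and were held by at least 201 windows each. These matches describe the letters of the windows, not sites of binding.

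Many of the members stand next to each other in the genome. Of the 38 genes, 24 lay in 9 arrays of 2 to 5 neighbours. In the array on chromosome 1 that opens with *GSTU24* and *GSTU25*, the last gene, *GSTU26*, 2170 bases after *GSTU25*, had a logFC of -0.03 (standard error 0.35) in PO and 0.06 (standard error 0.35) in TO. Its CPM were 1.56, 1.96, 0.726 and 1.42 in PO, 1.74, 1.60, 1.25 and 1.45 in TO and 2.14, 1.97, 0.817 and 0.836 in DMSO, which overlap. Its protein is 62.8% identical to that of *GSTU24* and 65.8% identical to that of *GSTU25*.

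The array with 5 genes on chromosome 1, from *GSTU23* to *GSTU19*, held levels from under the filter to over 200 CPM. *GSTU22* had 1.36, 0.799, 0.280 and 1.44 CPM in PO, 1.99, 1.38, 2.82 and 1.39 CPM in TO and 0.255, 0.725, 1.02 and 0.338 CPM in DMSO. TO was above DMSO in every library and PO overlapped with DMSO. The logFC of *GSTU22* was 1.70 in TO (standard error 0.50, 95% interval 0.62 to 2.78, adjusted p = 0.24 from edgeR, 0.045 from DESeq2) and 0.73 in PO (standard error 0.51, 95% interval -0.36 to 1.82). *GSTU23* (-0.19 in PO, -0.06 in TO) and *GSTU20* (-0.18 in PO, 0.13 in TO) are the nearest tested genes on either side of it, and their intervals included 0.

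*GSTU19*, at the end of the same array, encodes an abundant tau enzyme with high activity towards the model substrate chlorodinitrobenzene. It had 269, 270, 272 and 296 CPM in PO, 304, 272, 296 and 254 CPM in TO and 227, 226, 225 and 243 CPM in DMSO. No steroid-treated library reached down to a DMSO library, and its spread between replicates was the smallest of the tested members in PO (4.58% of the mean) and in DMSO (3.62%). The logFC was 0.26 in PO (standard error 0.08, adjusted p = 0.24 from edgeR) and 0.29 in TO (standard error 0.08, adjusted p = 0.21 from edgeR), so neither passed. DESeq2 gave 0.051 in PO and 0.025 in TO.

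*GSTU18* and *GSTU17* overlap by 71 bases on the same strand. *GSTU18* had 16.5, 14.5, 13.5 and 13.8 CPM in PO, 17.2, 21.0, 15.6 and 15.8 CPM in TO and 18.6, 23.2, 20.1 and 19.2 CPM in DMSO. It was the member with the smallest p among those lower in PO, with every PO library below every DMSO library (logFC -0.48, standard error 0.11, unadjusted p = 0.00081, adjusted p = 0.16 from edgeR). In TO its logFC was -0.22 (standard error 0.11, 95% interval -0.46 to 0.02). *GSTU17*, a regulator of drought responses, had a logFC of -0.44 in PO and 0.12 in TO, with intervals that included 0.

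*GSTU16*, the neighbour of the nearly silent *GSTU15*, had 11.4, 12.7, 11.3 and 12.7 CPM in PO, 11.4, 13.7, 12.5 and 10.7 CPM in TO and 9.76, 9.48, 10.2 and 10.6 CPM in DMSO. The groups were close but did not overlap with DMSO, and the logFC of 0.26 in PO and 0.27 in TO (standard error 0.10 each) did not pass (adjusted p = 0.32 and 0.36 from edgeR). *GSTU27* had 19.7, 12.6, 12.8 and 15.8 CPM in PO, 19.8, 21.7, 16.2 and 15.8 CPM in TO and 28.7, 17.2, 17.5 and 17.4 CPM in DMSO. DMSO library 1 was far above the other 3, and the logFC of *GSTU27* in PO was -0.41 (standard error 0.19, unadjusted p = 0.045, adjusted p = 0.40 from edgeR) and -0.19 without DMSO library 1.

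**Figure D4:**
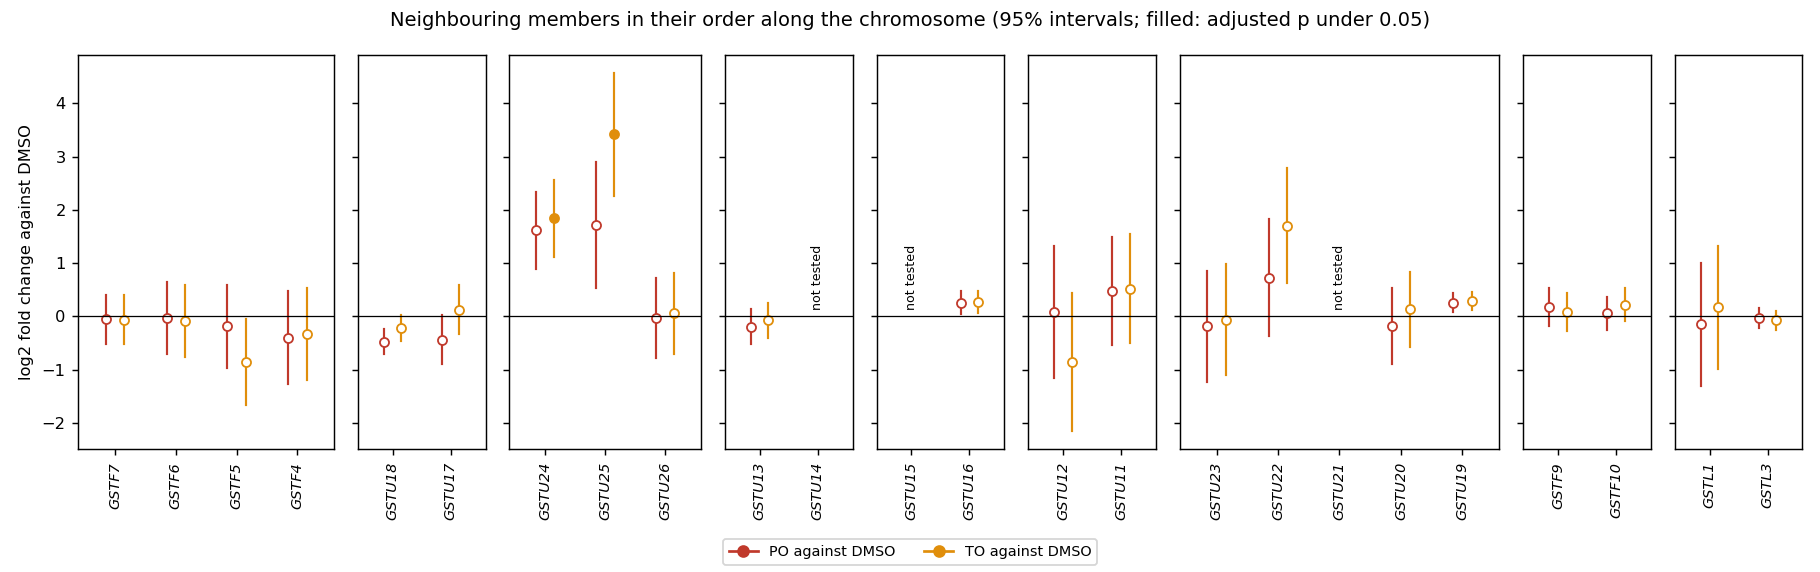
The log2 fold change against DMSO, with 95% intervals, of the 24 members that stand in 9 arrays, in their order along the chromosome; PO is left of TO, filled points have an adjusted p under 0.05, and 3 genes in the arrays were not tested. *GSTU24* and *GSTU25* lie above 0 in PO and TO next to *GSTU26* at about 0, and *GSTU22* lies above 0 in TO, while the intervals of *GSTU23* and *GSTU20* in the same array include 0.

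In the phi class, *GSTF8* had 1368, 1133, 1768 and 1633 CPM in PO, 1766, 1323, 1562 and 1320 CPM in TO and 1792, 1937, 1234 and 1119 CPM in DMSO. The ranges of the 3 groups overlapped. Its logFC was -0.04 in PO (95% interval -0.45 to 0.36) and -0.03 in TO (95% interval -0.43 to 0.38), and differences within these intervals were not detectable. *GSTF6*, which acts in camalexin synthesis, and its neighbour *GSTF7* had logFC of -0.03 and -0.05 in PO and of -0.09 and -0.06 in TO. Their proteins are 93.8% identical, and 10.3% of the 50-base stretches of *GSTF6* and 10.0% of those of *GSTF7* also occur in another gene, so reads may be split between them. *GSTF9* (0.17 in PO, 0.08 in TO) and *GSTF10* (0.06 in PO, 0.22 in TO) also had intervals that included 0.

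*GSTF2*, whose protein binds camalexin and auxin, had 382, 458, 434 and 513 CPM in PO, 494, 238, 337 and 381 CPM in TO and 415, 322, 322 and 287 CPM in DMSO. PO library 1 was below DMSO library 1, so the groups overlapped, and the logFC of 0.41 in PO (standard error 0.18) had an adjusted p of 0.40 from edgeR. Its exons overlap on the other strand with AT4G02510 over 60.5% of their length, and that locus had a logFC of 0.34 in PO and 0.12 in TO. No source used here says whether strand entered the counting, so reads of the 2 genes cannot be told apart there. *GSTF11*, of aliphatic glucosinolate synthesis, lies wholly within the exons of AT3G03200 on the other strand, and both loci had nearly the same count in every library (at most 12 apart). Reads there appear to have been counted for both loci, whichever strand they came from. Counts of other members whose exons overlap a gene on the other strand may therefore include reads of that gene. Which of the 2 genes the logFC of *GSTF11* (-0.32 in PO, -0.16 in TO) belongs to is uncertain.

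*GSTF12*, known as *TT19* for its part in carrying anthocyanins and proanthocyanidins to the vacuole, was expressed at a low level. Its exons overlap on the other strand with AT5G17230 over 9.9% of their length, and that locus had 44707 counts over the 12 libraries against 245 for *GSTF12*, with a logFC of -0.25 in PO and 0.12 in TO, so the reads of *GSTF12* may include some of that gene. *GSTF12* had 0.160, 0.266, 0.181 and 0.321 CPM in PO, 0.657, 0.492, 0.603 and 0.386 CPM in TO and 0.654, 0.322, 0.306 and 0.378 CPM in DMSO. Each PO library was below each TO library, and PO overlapped with DMSO through PO library 4. The logFC was -0.85 in PO (standard error 0.38, unadjusted p = 0.042, adjusted p = 0.39 from edgeR; -0.53 without DMSO library 1) and 0.35 in TO (standard error 0.36). *GSTF5* had 0.602, 0.329, 0.594 and 0.459 CPM in PO, 0.503, 0.236, 0.145 and 0.348 CPM in TO and 0.542, 0.624, 0.613 and 0.478 CPM in DMSO. TO overlapped with DMSO through TO library 1, and the logFC of *GSTF5* was -0.19 in PO and -0.85 in TO (standard error 0.38, unadjusted p = 0.04, adjusted p = 0.49 from edgeR). *GSTF3*, *GSTF4* and *GSTF14* had logFC of -0.07, -0.40 and -0.12 in PO and of -0.09, -0.33 and 0.30 in TO, all with intervals that included 0. The exons of *GSTF4* overlap on the other strand with AT1G02952 over 29.3% of their length.

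The tyrosine pathway gene *GSTZ1* had 56.0, 62.4, 63.2 and 74.4 CPM in PO, 66.4, 55.0, 58.3 and 57.8 CPM in TO and 51.4, 45.5, 49.5 and 50.7 CPM in DMSO. All steroid-treated libraries were above all DMSO libraries. The logFC was 0.38 in PO (standard error 0.09, adjusted p = 0.17 from edgeR, 0.026 from DESeq2) and 0.27 in TO (standard error 0.09, adjusted p = 0.33 from edgeR). Of the lambda genes, *GSTL3* had 201, 171, 168 and 199 CPM in PO, 190, 167, 174 and 186 CPM in TO and 185, 181, 195 and 195 CPM in DMSO. These overlapped, and the interval of its logFC ran from -0.21 to 0.15 in PO and from -0.25 to 0.11 in TO. *GSTL2* (0.02 in PO, -0.16 in TO) and *GSTL1* (-0.15 in PO, 0.17 in TO) had intervals that included 0.

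The other 7 tested tau genes were *GSTU9*, *GSTU10*, *GSTU11*, *GSTU12*, *GSTU13*, *GSTU20* and *GSTU28*. Their logFC ran from -0.52 (*GSTU9*) to 0.47 (*GSTU11*) in PO and from -0.86 (*GSTU12*) to 0.52 (*GSTU11*) in TO, and every interval included 0. The intervals in TO were between 0.65 (*GSTU13*) and 2.59 (*GSTU12*) wide on the log2 scale.

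Progesterone and testosterone were compared at the same dose and time in PO against TO, a single pair of compounds tested over all 23203 loci. In edgeR 0 members were called (0.0% of all loci), and DESeq2 also called 0 members and 4 loci. At an unadjusted p under 0.05, 0 members were higher in PO than in TO (against 3.31% of all loci) and 5 were lower (14.7%, against 4.37%), namely *GSTU10*, *GSTU17*, *GSTU18*, *GSTU25* and *GSTF12*. The logFC of *GSTU25* was -1.70 (standard error 0.48, 95% interval -2.73 to -0.67, unadjusted p = 0.0034, adjusted p = 0.63 from edgeR), and PO library 4 (1.15 CPM) was just above TO library 4 (1.10 CPM). *GSTF12* had a logFC of -1.20 (standard error 0.38, 95% interval -2.01 to -0.39, unadjusted p = 0.0067, adjusted p = 0.63 from edgeR) without overlap.

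Of the 18 tested tau genes, 17 had a logFC below 0 in PO against TO, with a median of -0.19, where the median over all loci was -0.0 and the 12 tested phi genes had 6 above and 6 below 0. Of all tested loci, 50.4% were below 0. In the cluster of *GSTU1* to *GSTU7*, 0 of 7 tested genes were above 0, with a median of -0.18. The pattern was therefore not particular to the tau genes outside that cluster. The 17 stayed at 17 under the other scalings, without the filter and with the replicate block, and ranged from 13 (without TO library 1) to 17 when a library was left out. The 18 genes were all read from the same PO and TO libraries, so their signs are not independent of each other. Refits of the same libraries add no independent support. *GSTU12* was the exception at 0.95, with a 95% interval from -0.34 to 2.24. For *GSTU24* the difference between PO and TO was -0.23 (95% interval -0.92 to 0.46), and for *GSTU22* it was -0.97 (95% interval -2.01 to 0.07). *GSTU10* had 2.49, 3.25, 3.12 and 1.88 CPM in PO and 3.33, 3.57, 3.98 and 3.44 CPM in TO, with every PO library below every TO library (logFC -0.41, standard error 0.18, adjusted p = 0.64 from edgeR). The exons of *GSTU10* overlap with AT1G74580 on the other strand and with AT1G74600 on the same strand, the larger overlap covering 7.7% of their length.

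The genes that work before and after the transferases were read from lists made by pathway. Of the 4 vacuolar transporters of glutathione conjugates, *ABCC1* to *ABCC4*, 1 was called in TO (against 0.284% of all loci) and 0 in PO (against 0.168%) at an adjusted p under 0.05 in edgeR. At an unadjusted p under 0.05 all 4 were higher in PO (against 5.96% of all loci) and 3 in TO (against 4.64%). DESeq2 called *ABCC2* in PO and *ABCC1* and *ABCC2* in TO, among 318 of 31833 loci in PO and 298 in TO. The gene called in edgeR was *ABCC2*, which transports glutathione conjugates and chlorophyll catabolites. It had 39.3, 39.7, 48.7 and 40.3 CPM in PO, 41.6, 65.3, 66.0 and 53.0 CPM in TO and 20.3, 23.8, 25.8 and 33.5 CPM in DMSO, with no overlap between either steroid and DMSO. *ABCC2* rose 2.19-fold in TO with a logFC of 1.13 ± 0.16 and an adjusted p of 0.0084 from edgeR, and its logFC in PO was 0.70 (standard error 0.16, adjusted p = 0.15 from edgeR).

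Of 10 tested genes of glutathione synthesis and recycling, 0 were called in PO or TO in edgeR. At an unadjusted p under 0.05, 1 of the 10 was higher in PO (against 5.96% of all loci) and 0 were lower (against 6.16%). In TO 3 were higher (against 4.64%) and 1 was lower (against 4.87%). *GSH1*, the first enzyme of glutathione synthesis, was higher in PO (logFC 0.41) and in TO (0.28). In TO the sulfate-assimilating reductase genes *APR2* (0.43) and *APR3* (0.81) were also higher and the glutamyl transpeptidase gene *GGT1* (-0.52) lower. DESeq2 called *GSH1* in PO and *APR3* in TO, among 318 of 31833 loci in PO and 298 in TO. Of 8 tested genes of other transferase classes, 0 were called in edgeR. At an unadjusted p under 0.05, 1 of the 8 was higher in PO (against 5.96% of all loci) and 2 in TO (against 4.64%). These were the dehydroascorbate reductase genes *DHAR2* in PO (0.61) and in TO (0.72) and *DHAR1* in TO (0.33). DESeq2 called *DHAR2* in both. In the cluster of *GSTU1* to *GSTU7*, 2 of 7 genes were called in PO (against 0.168% of all loci) and 3 of 7 in TO (against 0.284%), all higher by the labels. Its median logFC was 1.38 (PO) and 1.56 (TO), the values of *GSTU3*. In DMSO *GSTU3* had 2, 8, 6 and 8 counts, and *GSTU2*, which is among the TO calls, had 2, 4, 2 and 4. Both passed the filter on low counts through their steroid-treated libraries, where they were high. The medians and the TO share of the cluster are therefore no independent support. Outside the cluster, 1 of 18 tested tau genes was called in PO and 3 of 18 in TO, with the medians of -0.05 and 0.13 given above. The TO calls there include *GSTU25*, which passed the filter in the same way.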

How the data were processed

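RNAseq libraries from leaves of PO-, TO- and DMSO-treated *A. thaliana* Col-0 (4 each, grouped by the treatment in the labels) were analysed. Per the methods and the labels, the authors used fastp 0.23.2 for trimming, HISAT2 2.2.1 for alignment to TAIR10.1 and featureCounts 2.0.1 for counting. The deposited values are raw whole-number counts, 1 row per locus. The strand, overlap and read-pair options of the counting are not given in the sources used here, and of the counts between 1 and 20, 67.8 to 72.3% per library were even numbers. A count may therefore be a single read and not a read pair, so that low counts may stand for fewer read pairs. The growth protocol of the labels gives an age of 10 days, the treatment protocol 7 days.

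The test was that of edgeR 4.0.16 (R 4.3.3). Loci were filtered with filterByExpr (minimum count 10, 23203 of 38618 loci kept), scaled with TMM factors and fitted with the quasi-likelihood model with a term for treatment only (9 residual degrees of freedom). P-values were adjusted by the Benjamini-Hochberg method over all tested loci. Intervals are 95% intervals of the logFC, and RPKM is CPM per kilobase of merged exons of the RefSeq annotation. A limit of 3 counts and the intervals cover counting error and the spread between these libraries only, and the origin of each replicate (separate plants or pools) is not given in the sources used here. The procedure was tested on simulated counts. Windows of 300 bases and translated coding sequences came from RefSeq (Biopython 1.88, Python 3.11.15).

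Values in every library are given for members with an adjusted or unadjusted p under 0.05 in PO or TO against DMSO and for the most abundant gene of each class, 14 in all, and also for *GSTU10* (PO and TO), *GSTU26* and *ABCC2*, which were chosen after their values were seen. The members, gene lists and tests were chosen with earlier results of these data known. Alternatives were DESeq2 1.42.0, its size factors, total counts, no filter, only the groups compared, a replicate block and leaving out each library. Same-numbered libraries of different groups did not deviate together (correlation -0.14 to 0.20, against -0.26 to 0.23 for different numbers), so the numbers were not taken as pairs. No library was left out of the main comparison.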

Additional observations from a re-analysis of the deposited data

Results flagged for a closer look

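Of 102 sets of 4 libraries examined, those of the tested members in PO, TO and DMSO, 5 held a library far from the other 3, with a gap to its neighbour that exceeded the 95% critical value of Dixon for the share of the range. Chance alone flags about 1 set in 20. *GSTU19* was flagged in PO, where library 4 had 295.59 CPM and the other 3 had 269 to 272 CPM, and in DMSO, where library 4 had 243.0 CPM and the others 225 to 227 CPM. *GSTU27* had 28.73 CPM in DMSO library 1 and 17.2 to 17.5 CPM in the other DMSO libraries. *GSTF11* had 2.60 CPM in TO library 2 and 1.66 to 1.78 CPM in the other TO libraries, with the uncertainty about its overlapping neighbour given above. *GSTL1* had 3.82 CPM in DMSO library 2 and 1.33 to 1.47 CPM in the other DMSO libraries.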

How the results depend on the processing

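No named member that was called changed its sign under any of the 18 alternatives. *GSTU8* in TO was called in all 18 and in PO in 17 of them. The number of members called in PO (1) was 2 without the filter and 4 with DESeq2, which added *GSTU18*, *GSTU24* and *GSTZ1*, and ranged from 0 to 2 when a library was left out (0 without DMSO library 4, 2 without PO library 1). In TO (3) it was 5 with DESeq2, which added *GSTU19* and *GSTU22*, and 2 with only the groups compared, and ranged from 1 to 3 when a library was left out (1 without DMSO library 1, DMSO library 4 or TO library 3). In PO against TO it stayed at 0 under all 18. The cause of these moves was not tested. With the replicate block, 1 member was called in TO, since *GSTU25* (adjusted p = 0.054 from edgeR) and *GSTU24* (0.058) were lost, and it changed no call in PO. The number of all loci called was 318 with DESeq2 and 60 without the filter in PO (39), 298 with DESeq2 in TO (66) and 4 with DESeq2 in PO against TO (0 in edgeR, where 768 loci were higher and 1014 lower at an unadjusted p under 0.05). It ranged from 23 to 144 in PO and from 26 to 73 in TO when a library was left out. Scaling by total counts moved the median logFC of all loci by at most 0.052. Depth limits the low genes most, so that the 4 members not tested and those under 1 CPM have wide intervals or none.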

Other observations

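Within the DMSO group, *GSTF6*, *GSTF7*, *GSTF8*, *GSTF9* and *GSTF10* were all higher in libraries 1 and 2 than in libraries 3 and 4, and TO library 1 had the highest value of *GSTF6*, *GSTF7*, *GSTF8*, *GSTF9* and *GSTF10* in TO. The summed phi genes ranged from 3222 to 4314 CPM in PO, from 3056 to 4748 CPM in TO and from 2691 to 4650 CPM in DMSO, while the summed tau genes ranged from 376 to 414 CPM in PO, from 378 to 467 CPM in TO and from 350 to 376 CPM in DMSO, most of it from *GSTU19*. The spread between replicates of the tested members had a median of 22.8% of the mean in PO, 25.0% in TO and 28.2% in DMSO, and was widest for *GSTU25* in PO (68.9%), *GSTL1* in TO (89.7%) and *GSTU12* in DMSO (71.5%).

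The flower gene *AP3* was picked from the 4 flower markers. It had 0.033 to 0.0917 CPM in PO (2 to 4 counts) and 0 to 0.177 CPM in TO (0 to 9 counts). In DMSO it had 0 counts in all libraries. These values lie near the limit of 3 counts, TO reached 0 as DMSO did, and any direction is as uncertain as the labels. Of the 3 flower markers tested, 0 were called in PO or TO in edgeR. Their median logFC was -0.09 in PO and 0.32 in TO.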
